A study of Homo sapiens with 16 samples.

Results

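The mitochondrially encoded genes are the genes of the small circular genome inside the mitochondrion. They were taken as the genes on the MT chromosome in the tables of experiment 1, and as the symbols that start with MT- in those of experiment 2. This gave 35 of 57500 genes in experiment 1, 13 protein-coding and 22 tRNA genes, and the same 13 protein-coding genes of 28890 in experiment 2. The 2 mitochondrial rRNA genes were not analysed here. The data are 16 RNA-seq libraries of U2OS, a human osteosarcoma cell line, made from poly-A RNA. Wild-type (WT) cells were compared with isogenic cells edited by CRISPR/Cas9 to carry the W329G substitution in MDM2, the ubiquitin ligase that restrains p53. Each genotype was represented by 2 lines, numbered 1 and 2, given DMSO or 50 µM 5-fluorouracil (5-FU) for 24 h in each of 2 experiments, whose libraries came from different vendors. The 4 groups (WT with DMSO, WT with 5-FU, W329G with DMSO, W329G with 5-FU) thus held 4 libraries each, and replicates 1 and 2 are lines 1 and 2 of experiment 1, replicates 3 and 4 the same line numbers of experiment 2. Whether a numbered line is 1 clone is not stated, and a p-value here reflects only the spread among these lines and experiments.

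As background, the mitochondrial genome is transcribed from both strands into long precursors that run over many genes. The tRNA genes stand between the mRNA and rRNA genes, and cutting the tRNAs out by RNase P and RNase Z releases the others, after which most of the mRNAs receive a short poly-A tail. The 13 proteins are subunits of the respiratory chain and ATP synthase. MT-ND1 to MT-ND6 and MT-ND4L belong to complex I, MT-CYB to complex III, MT-CO1, MT-CO2 and MT-CO3 to complex IV, and MT-ATP6 and MT-ATP8 to ATP synthase. The nucleus encodes the other subunits and the proteins that copy, transcribe and translate this genome. 5-FU is a pyrimidine analogue that is built into RNA and blocks thymidylate synthase.

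The sequences themselves bear on what a count of these genes can mean. The coordinates of the 35 genes in the files of experiment 1 equal those of GENCODE release 29 (GRCh38), from which the sequences are taken. MT-ND6 is the protein-coding gene on the minus strand, with 8 tRNA genes, while 12 protein-coding and 14 tRNA genes lie on the plus strand. Its RNA holds 35.6% G and 7.05% C, against 6.28% to 16.2% G and 29.5% to 36.0% C in the other 12. The first 60 bases of MT-ND6 (MT:14614-14673, GRCh38, minus strand) and of its neighbour MT-ND5 (MT:12337-12396, plus strand) are shown with each G in capitals, 21 against 2.
MT-ND6: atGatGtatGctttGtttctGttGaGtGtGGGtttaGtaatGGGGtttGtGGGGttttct
MT-ND5: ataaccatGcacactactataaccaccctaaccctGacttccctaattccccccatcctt
Whether the counting used strand is not given in the sources used here, so RNA of MT-ND6 and RNA of the strand opposite it cannot be told apart in these counts. Some neighbours share bases of 1 transcript. MT-ATP8 and MT-ATP6 overlap by 46 bases, and MT-ND4L and MT-ND4 by 7, so reads over the shared bases belong to both genes. The last 80 bases of MT-ATP8 (MT:8493-8572, GRCh38, plus strand) are shown with the overlap in capitals.
MT-ATP8: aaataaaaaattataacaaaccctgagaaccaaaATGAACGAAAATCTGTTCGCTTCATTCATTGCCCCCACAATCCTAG
A run of 3 adjacent tRNA genes carries the largest changes called in W329G, and these are shown whole with the anticodon in capitals. MT-TH (histidine, MT:12138-12206), MT-TS2 (serine, MT:12207-12265) and MT-TL2 (leucine, MT:12266-12336) lie on the plus strand of GRCh38 with 0 bases between them, between MT-ND4 and MT-ND5.
MT-TH: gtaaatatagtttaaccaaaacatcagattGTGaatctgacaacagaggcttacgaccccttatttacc
MT-TS2: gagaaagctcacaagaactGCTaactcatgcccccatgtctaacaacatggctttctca
MT-TL2: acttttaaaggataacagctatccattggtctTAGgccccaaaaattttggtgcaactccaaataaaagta
The nuclear genome also holds near copies of these genes, as MTATP6P1 on chromosome 1 shows. Over its 681 bases it differs from MT-ATP6 at 10, and its longest stretch without a difference is 141 bases. A window of 70 bases with 4 differences, in capitals, is shown for the member (MT:8649-8718, GRCh38, plus strand) and the copy (1:633818-633887, GRCh38, plus strand).
MT-ATP6: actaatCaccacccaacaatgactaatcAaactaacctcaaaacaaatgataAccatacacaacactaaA
MTATP6P1: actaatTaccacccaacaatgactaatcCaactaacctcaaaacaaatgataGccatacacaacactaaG

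Library totals ran from 24715999 to 56877328 counts. The tables of experiment 2 hold 26 counts of at least 7 digits. Each belongs to MT-CO1, MT-CO2, MT-CO3, MT-ND4 or MT-ATP6 and ends in 0, so the highest member counts there appear rounded. Markers of mesenchymal and osteoblast cells summed to between 6298 and 15621 CPM in every library, where CPM are counts scaled to a common library size. In each group 6 of 10 of these markers averaged 5 CPM or more. SPARC ran from 1479 to 4356 CPM and FN1 from 650 to 2999 CPM. ALPL ran from 0.168 to 8.17 CPM, COL1A2 from 0.198 to 9.02 CPM and BGLAP from 0.0279 to 0.655 CPM. Epithelial markers summed to between 80.1 and 137 CPM in experiment 1 and between 11.6 and 23.9 CPM in experiment 2. Blood cell markers summed to between 41.0 and 134 CPM in experiment 1 and between 0.897 and 1.78 CPM in experiment 2. In each group 1 of 6 blood cell markers averaged 5 CPM or more. This was LYZ, at 37.7 to 130 CPM in experiment 1, while PTPRC stood at 0.249 to 0.803 CPM there. Neural markers summed to between 7.31 and 42.1 CPM over both experiments, and no marker was at 0 in all 16 libraries. CDKN1A, the p53 target that encodes the cell cycle inhibitor p21, stood at 118 ± 37.7 CPM (SD, n = 4) in WT with DMSO and 679 ± 336 CPM with 5-FU, against 94.0 ± 33.8 CPM and 155 ± 66.8 CPM in W329G.

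Members took between 7.11% and 31.5% of a library's counts, with a median of 20.1%. In WT with DMSO the share was 24.4%, 13.6%, 20.7% and 19.9% in replicates 1 to 4, and with 5-FU 31.5%, 17.5%, 22.5% and 23.9%. The share of each WT pair was higher with 5-FU, although the groups overlap. In W329G with DMSO it was 7.11%, 16.3%, 19.7% and 21.7%, and with 5-FU 7.95%, 20.3%, 25.6% and 18.0%. Here 3 of 4 pairs were higher and the pair of line 2 in experiment 2 was lower, by 3.70 percentage points. The mean difference within a pair was 4.25 ± 2.16 percentage points (SD, n = 4) in WT and 1.77 ± 4.20 (SD, n = 4) in W329G, so that in W329G the spread over pairs exceeded the mean. The Wilson 95% interval of a share was at most 0.0168 percentage points to either side, which covers counting error only.

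**Figure D1:**
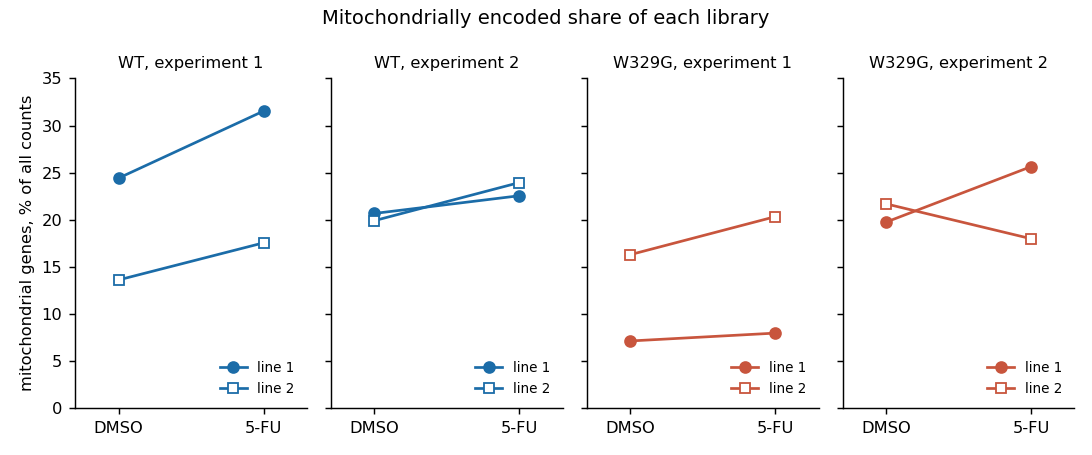
Share of each library's counts (percent, y axis) held by the mitochondrially encoded genes, with DMSO and 5-FU of the same line joined by a line, for each genotype and experiment. In experiment 1 the lines differ widely (W329G line 1 at 7.11% and 7.95%, WT line 1 at 24.4% and 31.5%), while the libraries of experiment 2 lie between 18.0% and 25.6%.

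The share spread more widely over the libraries of experiment 1 than over those of experiment 2. The 8 libraries of experiment 1 had a mean of 17.3 ± 8.18% (SD) and those of experiment 2 21.5 ± 2.48% (SD). WT line 1 was above WT line 2 in experiment 1 under both treatments, and W329G line 1 below W329G line 2. In experiment 2 the lines stood in the same order with DMSO, at 20.7% and 19.9% in WT and 19.7% and 21.7% in W329G. With 5-FU the order was reversed, at 22.5% and 23.9% in WT and 25.6% and 18.0% in W329G, so that the W329G lines differed there as well. The scaling factors (trimmed mean of M values, TMM) moved with the share in experiment 1, from 0.824 in WT line 1 with 5-FU to 1.16 in W329G line 1 with 5-FU. With scaling from nuclear genes alone they lay between 0.906 and 1.05 in that experiment.

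Measured per base, the members differed widely in level although they come from shared precursors. With counts divided by gene length and given as a percent of the sum over the 13 protein-coding genes, MT-CO1, the catalytic core of complex IV, was highest in experiment 1, at 18.7 ± 2.31% (SD, n = 8 libraries). MT-ATP6 (13.2 ± 1.26%), MT-CO3 (13.01 ± 0.662%), MT-ATP8 (11.7 ± 0.803%) and MT-CO2 (9.62 ± 0.594%) followed. The order of MT-ATP6 and MT-CO3 is within their SDs. The complex I genes and MT-CYB were lower, from MT-ND4L at 5.69 ± 0.659% to MT-ND5 at 2.09 ± 0.264%. In experiment 2 MT-CO1 (13.9 ± 2.32%), MT-CO3 (13.3 ± 1.98%), MT-CO2 (13.2 ± 1.03%) and MT-ATP6 (12.4 ± 0.859%) led within 1 SD of each other, and MT-ND5 (1.71 ± 0.217%) stood near the bottom again. The genes of complex IV and ATP synthase thus stood above those of complexes I and III in experiment 1, while in experiment 2 MT-ND4, at 9.83 ± 0.563%, overlapped MT-ATP8 at 10.4 ± 4.61%.

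MT-ND6, the complex I subunit encoded on the minus strand, was the member that differed most between the experiments. It stood at 5432, 2358, 1192 and 3119 CPM in the DMSO libraries of experiment 1 (WT lines 1 and 2, then W329G lines 1 and 2) and at 124, 97.6, 323 and 397 CPM in those of experiment 2. With 5-FU it stood at 8197, 3132, 1419 and 4323 CPM against 166, 209, 296 and 204 CPM. Every library of experiment 1 was thus above every library of experiment 2. Relative to the length of each gene, the level of MT-ND6 was 155 ± 13.2% of that of MT-ND5 in experiment 1 and 10.9 ± 5.85% in experiment 2 (SD, n = 8 each). In the fit of all 16 libraries with a term for experiment (edgeR quasi-likelihood test, adjusted over 16429 genes), MT-ND6 was lower in experiment 2 by a log2 fold change of -4.05 ± 0.44 (SE, adjusted p = 1.04e-06), and it was the 1 of 13 members lower where 31.4% of all genes tested were lower. MT-ND4 (1.14 ± 0.27, adjusted p = 0.00173), MT-CO2 (0.77 ± 0.27, adjusted p = 0.0215) and MT-ND2 (0.75 ± 0.25, adjusted p = 0.015) were higher, 3 of 13 where 27.8% of all genes were higher. Experiment, sequencing vendor and the set of genes counted (57500 in experiment 1, 28890 in experiment 2) are the same split and cannot be told apart.

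**Figure D2:**
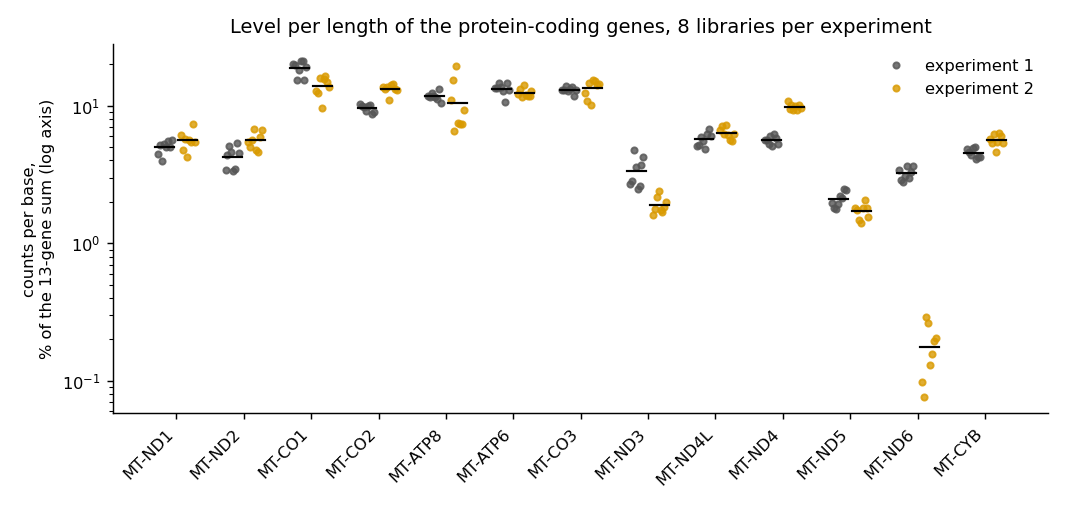
Level per base of the 13 protein-coding genes (counts divided by length, percent of their sum, log axis), with a point for each of 8 libraries per experiment and a bar at the mean. MT-ND6 has a mean of 3.22% in experiment 1 and 0.177% in experiment 2, and MT-CO1 has the highest mean in both.

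In WT cells given 5-FU the complex IV genes were higher than with DMSO in each of 4 pairs. MT-CO1 went from 94490, 46827, 47894 and 45723 CPM with DMSO to 139382, 64899, 58196 and 64414 CPM with 5-FU in replicates 1 to 4. Each pair was higher with 5-FU, by 0.28 to 0.56 on the log2 scale, while line 1 of experiment 1 stood far above the other lines under both treatments. MT-CO3 went from 30673, 15775, 23607 and 20614 CPM to 44585, 21349, 29135 and 29763 CPM, also higher in each pair. MT-CO2 was higher in 4 of 4 pairs by 0.06 to 0.44 on the log2 scale. Of the other members, MT-ND6 and MT-ND5 were higher in 4 of 4 pairs, MT-ND5 by 0.01 at the least, and MT-ATP8 was higher in both pairs of experiment 1 and lower in both of experiment 2.

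Without regard to the pairs, no member passed the test in WT. The edgeR test of the 16 libraries called 0 of 13 members at an adjusted p below 0.05, where it called 8.78% of all genes, and 0 of 13 had an unadjusted p below 0.05. DESeq2 called 0 of 13 as well. The largest log2 fold changes were those of MT-ND6 (0.61 ± 0.53, SE), MT-CO3 (0.47 ± 0.37) and MT-CO1 (0.47 ± 0.43), and 12 of 13 members were above 0. The median over the members was 0.30, beside 0.01 over all 16429 genes. With the DMSO and 5-FU libraries of a line and experiment taken as a pair, edgeR's test with this replicate block called 3 of 13 members higher, where it called 11.6% of all genes higher. These were MT-CO1 (0.45 ± 0.14, adjusted p = 0.0352), MT-CO3 (0.45 ± 0.14, adjusted p = 0.0297) and MT-ND6 (0.63 ± 0.19, adjusted p = 0.0285). The calls rest on single pairs: without replicate 1 or without replicate 4 of WT 0 of the 3 were kept, without replicate 2 1 was kept (MT-ND6), and without replicate 3 2 were kept (MT-CO1 and MT-CO3).

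**Figure D3:**
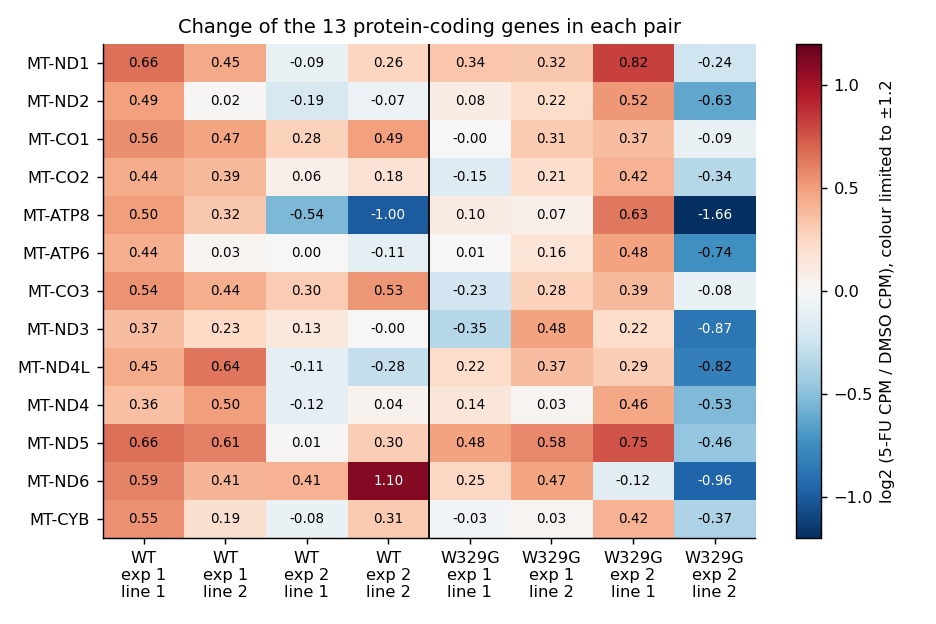
Log2 ratio of CPM with 5-FU to CPM with DMSO for each protein-coding gene (rows, in gene order) in each of the 8 pairs (columns). The WT pairs of experiment 1 are above 0 for each gene shown, and the pair of W329G line 2 in experiment 2 is below 0 for each, from -0.08 for MT-CO3 to -1.66 for MT-ATP8.

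In W329G cells the pairs moved in different directions. MT-CO1 stood at 19308, 53235, 51712 and 42462 CPM with DMSO and at 19265, 66057, 66804 and 39890 CPM with 5-FU. The pairs of replicates 2 and 3 were higher with 5-FU and those of replicates 1 and 4 were not. MT-ATP8, the small subunit of ATP synthase, stood at 2071, 4651, 2844 and 11596 CPM with DMSO and at 2220, 4866, 4412 and 3658 CPM with 5-FU. Its value in replicate 4 with DMSO was the highest of the 16 libraries. In that library MT-ND2, at 20278 CPM, was likewise the highest of 16, and all 13 members were higher in it than in the 5-FU library of the same line. The edgeR test called 0 of 13 members where it called 0.785% of all genes. None had an unadjusted p below 0.05, and DESeq2 called 0 of 13. The median log2 fold change was 0.03 over the members and 0.02 over all genes. With the replicate block 0 of 13 were called, where 10.9% of all genes were, and the lowest adjusted p was 0.243. Without replicate 4 of W329G the blocked test called MT-ND5 higher (0.61 ± 0.14, adjusted p = 0.0286).

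The responses of the genotypes were not shown to differ for any of the 13 members over both experiments. The test of the difference called 0 of 13 where it called 1.21% of all genes, with 0 of 13 at an unadjusted p below 0.05 and 0 of 13 called by DESeq2. With the replicate block it called 0 of 13, where it called 6.15% of all genes, and 1 of 13 had an unadjusted p below 0.05 (MT-ND6, -0.71 ± 0.27, adjusted p = 0.161). The differences, W329G minus WT, ran from -0.82 for MT-ND6 to -0.01 for MT-ND1, with a median of -0.22 beside 0.01 over all genes. All 13 were below 0 with TMM scaling, and 3 of 13 were above 0 when libraries were scaled by their total counts. The 5-FU responses of experiments 1 and 2 were also compared directly, with the replicate block. For this 0 of 13 members were called in WT, where 0.0548% of all genes were, and 0 of 13 in W329G, where 0.0609% were. At an unadjusted p below 0.05 there were 2 of 13 in WT and 1 of 13 in W329G.

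MT-ND6 in experiment 2 was the protein-coding member whose response differed between the genotypes when that experiment was fitted alone with the replicate block. It rose in WT by 0.76 ± 0.20 (edgeR quasi-likelihood test, adjusted p = 0.0219), the 1 of 13 members higher where 6.88% of 16041 genes were higher. Without WT replicate 4 it was 0.42 ± 0.21 with an adjusted p of 0.257. In W329G it was -0.55 ± 0.20 with an adjusted p of 0.11, and 0 of 13 members were called, where 5.35% of genes were. There 1 of 13 had an unadjusted p below 0.05, and DESeq2 without the block called 0. MT-ND6 passed in W329G at the same size without WT replicate 3 (adjusted p = 0.0265, edgeR) or WT replicate 4 (adjusted p = 0.0152). MT-ND6 was lower in both W329G pairs of this experiment, while the other 12 members were higher in the pair of line 1 and lower in that of line 2. Without W329G replicate 3 the log2 fold change was -0.55 ± 0.13 for MT-ND4 and -1.69 ± 0.19 for MT-ATP8. Without W329G replicate 4 it was 0.35 ± 0.09 for MT-CO1 and 0.80 ± 0.14 for MT-ND1. In each of these fits a lone W329G pair takes its spread from WT. The difference was -1.31 ± 0.28 (adjusted p = 0.0284), again 1 of 13 where 1.12% of genes were lower. Without W329G replicate 4 it was -0.89 ± 0.36 with an adjusted p of 0.342. The direction in which differences of members were called also turned with these pairs, lower without W329G replicate 3 and higher without W329G replicate 4. In experiment 1 the same difference was -0.14 ± 0.17 with an adjusted p of 0.748. At baseline in experiment 2, MT-ND6 was at 124 and 97.6 CPM in WT and at 323 and 397 CPM in W329G, so the lines of the genotypes did not overlap there. DESeq2 on experiment 2 called this difference (1.69 ± 0.27, adjusted p = 1.61e-06) and edgeR on the same counts did not (adjusted p = 0.39). In experiment 1 the baseline difference had the opposite sign, -0.82 ± 0.70 with an adjusted p of 0.948.

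Over both experiments, no member was called between the genotypes under DMSO. For this, counts were summed over the experiments for each line, which gives 2 sums per genotype. MT-CO1 was at 58734 ± 23854 CPM (SD, n = 4 libraries) in WT and 41679 ± 15655 CPM in W329G. The edgeR test of the sums called 0 of 13 members where it called 1.42% of 17477 genes. None had an unadjusted p below 0.05, and DESeq2 called 0 of 13. The median log2 difference, W329G minus WT, was -0.25 over the members and 0.00 over all genes. Within experiments the medians were -0.68 in experiment 1 and 0.02 in experiment 2, and 0 of 13 members in experiment 1 and 8 of 13 in experiment 2 were above 0.

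Under 5-FU, 12 of 13 members were lower in W329G in the line sums, and the complex IV genes came closest to the threshold. MT-CO1 was at 139382, 64899, 58196 and 64414 CPM in WT and at 19265, 66057, 66804 and 39890 CPM in W329G. The groups overlap, and line 1 of experiment 1 was the highest library in WT and the lowest in W329G. The log2 difference of MT-CO1 was -0.70 ± 0.21 (edgeR, adjusted p = 0.0529), of MT-CO2 -0.55 ± 0.19 (adjusted p = 0.0879), of MT-CO3 -0.54 ± 0.20 (adjusted p = 0.104) and of MT-CYB, the complex III gene, -0.51 ± 0.20 (adjusted p = 0.125). The test called 0 of 13 members, where it called 14.4% of all genes, and 4 of 13 had an unadjusted p below 0.05. DESeq2 called these 4 lower, where it called 9.48% of all genes lower, with adjusted p from 0.00314 for MT-CO1 to 0.0411 for MT-CYB. The median was -0.45 over the members and -0.01 over all genes. Within experiments it was -0.95 in experiment 1 and -0.03 in experiment 2. The sums join lines by their number, and the lines deviated in opposite directions in the 2 experiments. Across 16429 genes the correlation of the line differences between experiments was between -0.57 and -0.19, which describes these libraries. With the numbers exchanged in experiment 2, edgeR called 0 of 13 members and 222 genes, against 2514.

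The tRNA genes were counted in experiment 1 alone, at levels far below those of the mRNAs. Their counts made up between 0.0621% and 0.302% of a library. Of the 22, 14 averaged 5 CPM or more over the 8 libraries and the other 8 lay between 0.461 and 4.46 CPM. TruSeq poly-A libraries are not made to capture tRNAs, so counts over these short genes can also come from longer transcripts that still hold them, and the counts do not tell these apart. In the 4 pairs of experiment 1, 16 of 22 tRNA genes were higher with 5-FU in each pair and 5 in 3 pairs. MT-TL1, the leucine tRNA gene that follows the rRNA genes, stood at 415 and 343 CPM in WT lines 1 and 2 with DMSO and at 995 and 643 CPM with 5-FU. It stood at 130 and 400 CPM in W329G with DMSO and at 257 and 559 CPM with 5-FU. The WT groups did not overlap and the W329G groups did, while within each line the 5-FU library was the higher.

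**Figure D4:**
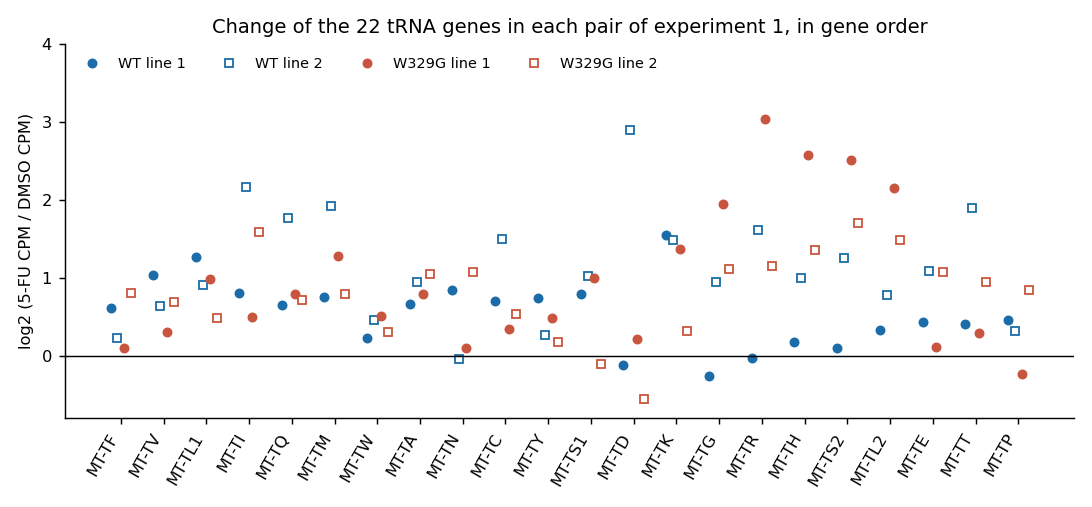
Log2 ratio of CPM with 5-FU to CPM with DMSO for the 22 tRNA genes (x axis, in gene order) in the 4 pairs of experiment 1, WT in blue and W329G in red, filled circles for line 1 and open squares for line 2. Most points lie above 0, and MT-TG, MT-TH, MT-TS2 and MT-TL2 are higher in both W329G pairs than in either WT pair.

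Fitted without the pairs, edgeR called 0 of the 35 members in WT of experiment 1, where it called 0.879% of 20372 genes. There 3 of 35 had an unadjusted p below 0.05, and DESeq2 called 1, MT-TI. In W329G it called 0 of 35, where it called 0% of all genes, with 4 of 35 at an unadjusted p below 0.05 and 0 called by DESeq2. With the replicate block, 22 of 35 members rose in WT, where 8.74% of all genes were called higher, and 0 fell. These were 13 tRNA genes and 9 protein-coding genes, from MT-TI (1.55 ± 0.30, adjusted p = 0.00361) to MT-ATP8 (0.38 ± 0.11, adjusted p = 0.0353). MT-TL1 rose by 1.10 ± 0.13 (adjusted p = 0.000148), MT-TC, the cysteine tRNA gene, by 1.11 ± 0.16 (adjusted p = 0.000513) and MT-TV, the valine tRNA gene, by 0.85 ± 0.13 (adjusted p = 0.000854). By strand, 15 of 26 members of the plus strand and 7 of 9 of the minus strand were called. The median was 0.53 over the 35 members and 0.01 over all genes. Without WT replicate 1, 12 of the 22 kept their call, without WT replicate 2, 8 did, and 4 kept it in both fits (MT-TC, MT-TI, MT-TL1 and MT-TV). With a pair left out the other stands alone, and its spread is taken from W329G.

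In W329G of experiment 1 the replicate block called 11 of 35 members higher, where it called 4.13% of all genes higher, and 0 lower. These were 10 tRNA genes and MT-ND5, and 7 of these tRNA genes and MT-ND5 were also called in WT. The largest rises were in the adjacent genes MT-TS2 (2.06 ± 0.38, adjusted p = 0.00731), MT-TH (1.89 ± 0.28, adjusted p = 0.00264) and MT-TL2 (1.79 ± 0.17, adjusted p = 0.000182), whose sequences are printed above. MT-TL2 stood at 4.78 and 14.2 CPM in W329G lines 1 and 2 with DMSO and at 21.3 and 39.7 CPM with 5-FU. In WT it stood at 17.1 and 12.1 CPM and at 21.5 and 20.9 CPM. MT-TH went from 1.24 and 4.36 CPM to 7.40 and 11.2 CPM in W329G, and MT-TS2 from 0.405 and 0.928 CPM to 2.32 and 3.02 CPM. In these 3 genes, named for the largest rises, the W329G groups of 2 libraries each did not overlap. How many of all genes do so was not counted. MT-ND5, the next gene downstream, rose by 0.50 ± 0.11 (adjusted p = 0.0171) in W329G and by 0.60 ± 0.11 (adjusted p = 0.00279) in WT. Without W329G replicate 1, 5 of the 11 calls were kept, without W329G replicate 2, 4 were, and MT-TH and MT-TL2 kept theirs in both fits. MT-TL2 was the member whose response differed between the genotypes, by 1.22 ± 0.23 (adjusted p = 0.0102), 1 of 35 where 2.43% of all genes were called higher. With each of the 4 pairs left out in turn, the blocked difference of MT-TL2 ran from 0.93 to 1.56. Without the block it was 1.14 ± 0.72 (edgeR, unadjusted p = 0.151). The differences of MT-TH (1.28 ± 0.40, adjusted p = 0.0989) and MT-TS2 (1.36 ± 0.54, adjusted p = 0.206) did not pass.

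Nuclear RNAs that are made without a poly-A tail were looked at beside the tRNA genes, in a list of 9 chosen after the tables had been seen. Only 3 had enough counts to be tested in experiment 1. RN7SL2, a signal recognition particle RNA, was at 46.6 and 31.4 CPM in WT with DMSO and 64.9 and 39.3 CPM with 5-FU, and at 20.8 and 30.7 CPM and 39.9 and 67.5 CPM in W329G. With the replicate block it rose in WT (0.42 ± 0.11, adjusted p = 0.0178) and in W329G (1.04 ± 0.11, adjusted p = 0.000371). SNORD3A, a small nucleolar RNA, rose in WT (1.24 ± 0.34, adjusted p = 0.0249) and did not pass in W329G (0.83 ± 0.34, adjusted p = 0.145). SCARNA10 passed in neither, and the other 6 were at 0 in all 8 libraries. Whether reads of these 6 were left uncounted was not tested. The part of RNA without a poly-A tail in the tRNA results was not tested.

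The nuclear genes that make, process and translate mitochondrial RNA, and the nuclear subunits of the same complexes, were counted in fixed lists. Of 247 genes tested, 1 rose and 6 fell in WT with 5-FU, where 8.78% of all genes were called, and the median was -0.06 beside 0.01 over all genes. Under the replicate block 3 rose and 26 fell, where 11.6% of all genes were called higher and 13.1% lower. The gene that rose was RRM2B, a p53 target and the ribonucleotide reductase subunit that supplies nucleotides for mitochondrial DNA. It went from 87.8, 124, 76.9 and 92.3 CPM to 416, 408, 291 and 259 CPM in WT (1.83 ± 0.15, edgeR, adjusted p = 5.18e-06), and the groups did not overlap. In W329G it stood at 96.8, 79.7, 71.7 and 78.4 CPM with DMSO and 122, 89.5, 57.1 and 67.3 CPM with 5-FU. Its response differed between the genotypes by -1.83 ± 0.21 (edgeR, adjusted p = 0.000609). RRM2B was the 1 of 22 genes of mitochondrial DNA upkeep and transcription called for this difference, where 1.21% of all genes were called. MGME1, a nuclease of mitochondrial DNA replication, fell in WT (-0.56 ± 0.13, adjusted p = 0.0155). Proteins of the mitochondrial ribosome accounted for 4 of the 6 that fell, among 78 tested, where 8.78% of all genes were called in either direction. With the replicate block 11 of 78 fell, near the 13.1% of all genes called lower, and 0 rose. They include MRPL37 (-0.52 ± 0.11, adjusted p = 0.00746) and MRPS34 (-0.54 ± 0.13, adjusted p = 0.0167). MRPS6 fell in WT (-0.48 ± 0.11, adjusted p = 0.0116) and in W329G (-0.72 ± 0.11, adjusted p = 0.00891), where it was the 1 gene called of 247 beside 0.785% of all genes. Of the 247, 1 rose and 9 fell in W329G with the replicate block, where 5.79% of all genes were called lower.

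Of the 78 nuclear subunits of complexes I to V, edgeR called 0 higher and 1 lower in WT, where it called 8.78% of all genes. The 1 was UQCRC2 of complex III (-0.39 ± 0.10, edgeR, adjusted p = 0.0292), and the median over the 78 was -0.02. In W329G edgeR called 0 of 78, where it called 0.785% of all genes, with 56 below 0 and a median of -0.11. There 5 had an unadjusted p below 0.05, and DESeq2 called 3 lower. Of the 78, 1 rose and 4 fell in WT with the replicate block, where 11.6% of all genes were called higher and 13.1% lower. In W329G 0 rose and 5 fell with this block, where 5.79% of all genes were called lower. Of the 34 genes of mitochondrial RNA processing edgeR called 0 in either genotype, beside 8.78% of all genes in WT and 0.785% in W329G. An unadjusted p below 0.05 was found for 1 of them in WT and 2 in W329G, and DESeq2 called 0. Of the 9 biogenesis regulators edgeR called 0 in either genotype as well, beside the same shares. Here 2 in each genotype had an unadjusted p below 0.05, and DESeq2 called 1 lower in WT and 0 in W329G. With the replicate block 2 of 34 and 5 of 9 fell in WT, beside 13.1% of all genes, PPARGC1B, a transcriptional coactivator of mitochondrial genes, among them (-0.50 ± 0.12, adjusted p = 0.00642). The sum of the 13 members over the sum of the 78 nuclear subunits, in CPM, was 31.9 ± 10.6 in WT with DMSO, 40.7 ± 13.04 in WT with 5-FU, 25.9 ± 14.8 in W329G with DMSO and 29.96 ± 18.9 in W329G with 5-FU (SD, n = 4 each). The groups overlap, while within pairs the ratio was higher with 5-FU in 4 of 4 WT pairs and 3 of 4 W329G pairs. In WT it went from 34.7 to 50.7, 16.5 to 21.7, 40.8 to 43.4 and 35.6 to 47.1 in replicates 1 to 4. In W329G it went from 6.97 to 8.93, 21.5 to 25.5, 35.8 to 54.6 and 39.3 to 30.8. By experiment the ratio was 23.3 ± 14.2 and 40.9 ± 7.46 (SD, n = 8 each). Its denominator differed as well, with a nuclear sum of 6281 to 10250 CPM in experiment 1 and 4769 to 5912 CPM in experiment 2. Of the 78 nuclear subunits, edgeR called 57 lower and 5 higher in experiment 2, beside 31.4% and 27.8% of all genes. Between the genotypes under 5-FU, 10 of the 247 nuclear genes were higher and 5 lower in W329G, where 14.4% of all genes were called, SDHA of complex II among the lower (-0.50 ± 0.10, adjusted p = 0.0106). Under DMSO 1 was higher and 3 were lower, where 1.42% of all genes were called, SDHA again among them (-0.55 ± 0.10, adjusted p = 0.0357).

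Nuclear copies took very different counts in the 2 experiments, given here in CPM of each library's total. MTATP6P1, shown above beside MT-ATP6, ran from 350 to 2279 CPM in experiment 1 and from 1868 to 4322 CPM in experiment 2. MTND2P28 (98.4% identical to MT-ND2 over 1042 bases) ran from 11.8 to 34.8 CPM and from 109 to 478 CPM, and MTND1P23 (99.1% identical to MT-ND1 over 352 bases) from 0.146 to 1.64 CPM and from 44.1 to 110 CPM. MTCO1P12 (98.6% identical to MT-CO1 over 1543 bases) moved the other way, from 44.7 to 356 CPM in experiment 1 and from 6.94 to 22.4 CPM in experiment 2. In MTND2P28, MTND1P23 and MTCO1P12 the libraries of the experiments do not overlap. The mitochondrial pseudogenes together took 0.0413% to 0.261% of counts in experiment 1 and 0.208% to 0.497% in experiment 2, a small part beside the members. Whether reads of members were counted under these copies was not tested, and the values of MT-ATP6, MT-ND1, MT-ND2 and MT-CO1 are uncertain to that extent.

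**Figure D5:**
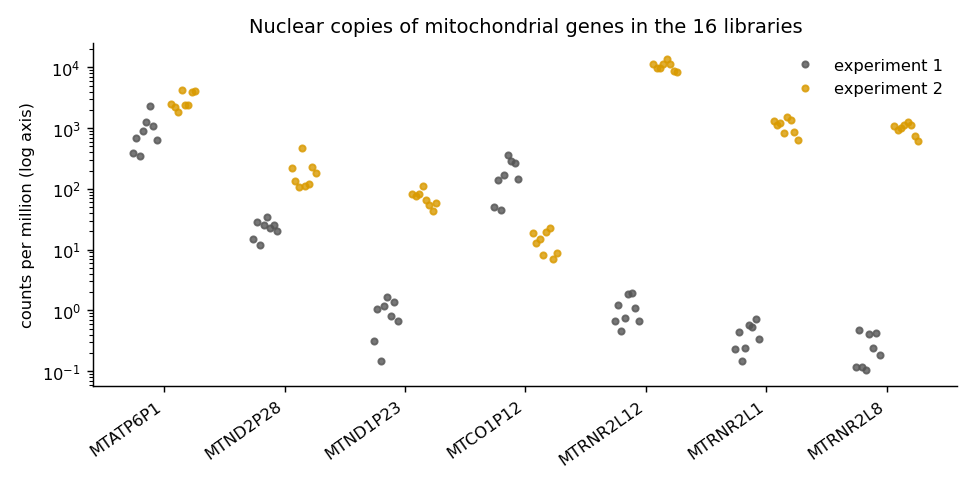
CPM (log axis) of 7 nuclear genes that are near copies of mitochondrial genes, with a point for each of 8 libraries of experiment 1 and of experiment 2. MTRNR2L12 lies between 0.466 and 1.94 CPM in experiment 1 and between 8242 and 13710 CPM in experiment 2.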

How the data were processed

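The authors deposited raw counts per gene, 1 table for each library, made from poly-A RNA with a TruSeq kit, per the labels' protocols. Per the file headers, experiment 1 gives Ensembl genes with coordinates and experiment 2 gives symbols. Which aligner and counter were used, and whether counting used strand, is not given in the sources used here. As build, hg19 is named in the submitters' processing notes, while the member coordinates equal those of GRCh38. Tables were joined by symbol (28684 genes, 97.9% to 98.9% of each library's counts). The 22 tRNA genes were tested in experiment 1 alone.

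Counts were tested with edgeR 4.0.16 in R 4.3.3 (quasi-likelihood test, TMM factors, filter on low counts, Benjamini-Hochberg adjustment, threshold 0.05). The 5-FU responses and their difference used all 16 libraries and an experiment term, and the genotype comparisons used the sums of each line over both experiments. CPM values of members and of named nuclear genes use TMM-scaled library sizes. Those of marker lists, the ratio to nuclear subunits and outlying values of nuclear copies use totals of the joined genes, and other values of nuclear copies use whole library totals. DESeq2 1.42.0, other scalings, no filter, a replicate block and leaving out lines or pairs were alternatives. The replicate block is justified by the design, since a number names the same line under DMSO and 5-FU of an experiment. The lines' differences also correlated between treatments (r from 0.487 to 0.708 across 16429 genes). The 2 libraries of a group and experiment differed beyond counting noise. The test was checked on simulated data. The simulated counts held no line, pair or experiment differences, so the check does not cover these. Named are the 13 protein-coding genes, some of the tRNA genes of at least 5 CPM, and nuclear copies of at least 5 CPM. Of each list, the called members with the 3 smallest p in each direction are named. Each tRNA gene named at this level was called in WT or in W329G of experiment 1 with the replicate block. The uncalled tRNA genes of this level are not named, so the named ones are a selection by result. MT-TG and MT-TS2, tRNA genes below 5 CPM, were named after their values were seen. Members and lists were chosen with earlier results of these data known.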

Additional observations from a re-analysis of the deposited data

Results flagged for a closer look

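In groups of 4 libraries, 76 combinations of a gene (or the share) and a group were searched for a library that stands far from the other 3, and 9 were found. Chance alone marks about 1 in 20 groups. Most are line 1 of experiment 1 in WT, the library with the highest mitochondrial share. With DMSO it held 94490 CPM of MT-CO1 (the others 45723 to 47894) and 2836 CPM of MT-ND3 (the others 1354 to 1522). With 5-FU it held 139382 CPM of MT-CO1 (the others 58196 to 64899), 10351 CPM of MT-ATP8 (the others 3764 to 4591), 3665 CPM of MT-ND3 (the others 1471 to 1791) and 6.42 CPM of MTND4P12 (the others 2.58 to 3.21), and 1310 CPM of MTATP6P1 (the others 2322 to 2439). WT line 2 of experiment 1 with DMSO was low in MT-CO2, at 10529 CPM against 21442 to 22551. W329G line 2 of experiment 2 with DMSO held 40.8 CPM of MTND4P12, a pseudogene of MT-ND4, against 1.12 to 3.41. CPM of the pseudogenes are here of the joined genes' totals.

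The response of MT-TL2 to 5-FU in experiment 1 was larger in W329G than in WT by 1.22 ± 0.23 on the log2 scale (edgeR with replicate block, adjusted p = 0.0102). This was 1 of 35 members, near the 2.43% of all genes called higher. Without the block the difference was 1.14 ± 0.72 (edgeR, unadjusted p = 0.151). The response of MT-ND6 in experiment 2 was smaller in W329G by -1.31 ± 0.28 (edgeR with replicate block, adjusted p = 0.0284). This was 1 of 13 members, where 1.12% of genes were called lower, and the call is lost without W329G replicate 4. MTRNR2L12, a nuclear gene on chromosome 3 that resembles the large mitochondrial rRNA, enters no comparison and had a mean of 10524 CPM in experiment 2 and 1.09 CPM in experiment 1.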

How the results depend on the processing

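In the fits of both experiments together, the count of the 13 protein-coding members called in the WT response was 0 without pairs and 3 with the replicate block, also 3 with this block and scaling from nuclear genes. Leaving out single pairs moved the blocked count between 0 and 4. In the W329G response it was 0 in each setting but the blocked fit without W329G replicate 4, which gave 1 (range 0 to 1), and for the difference of responses it was 0. Fitted alone with the block, experiment 1 gave 9 in WT, 1 in W329G and 0 for the difference, and experiment 2 gave 1, 0 and 1. Without a pair these counts moved in both experiments. In experiment 2 the direction of the W329G calls and of those for the difference turned with the W329G pair left out. Under DMSO the genotype comparison of line sums gave 0, and experiment 2 alone gave 1 with DESeq2 (MT-ND6). Under 5-FU it gave 4 with DESeq2's test, 4 with no filter on low counts (MT-CO1, MT-CO2, MT-CO3 and MT-CYB both times), 1 with total counts (MT-CO1) and 0 to 3 when a line was left out (3 without WT line 2). With line numbers exchanged in experiment 2 it gave 0, and this alternative was chosen after seeing the data. For the tRNA genes of experiment 1 the WT count was 0, 1 with DESeq2's test and 13 with the replicate block (7 to 13 without a pair). The W329G count was 0 and with the block 10 (4 to 8 without a pair), and for the difference 0 and with the block 1 (1 to 6 without a pair). The blocked tRNA fits were also chosen after seeing the data. Of 1222 values of single members under an alternative, 1076 kept their direction and side of the threshold, 35 passed it newly and 111 changed sign without a call. Counts over all genes ranged from 0 to 4257 in WT (1443 in the fit reported), 0 to 2125 in W329G (129), 0 to 1010 for the difference (198), 1 to 2309 under DMSO (249) and 179 to 3348 under 5-FU (2514). The mean change of the share kept its sign in WT and in W329G with each denominator and with each pair left out. The 8 tRNA genes below 5 CPM rest on few counts. What limits the number of calls was not tested.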

Other observations

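MTRNR2L1 and MTRNR2L8, nuclear genes that like MTRNR2L12 resemble the large mitochondrial rRNA, were also higher in every library of experiment 2 than in any of experiment 1. MTRNR2L1 had a mean of 0.402 CPM in experiment 1 and 1106 CPM in experiment 2, and MTRNR2L8 0.258 CPM and 985 CPM. Together the 13 genes of this family took 0.971% to 1.70% of the counts of a library in experiment 2. MTRNR2L12 stood at 8852 and 8242 CPM in WT with DMSO and 13710 and 11507 CPM with 5-FU in that experiment, and at 9678 and 11165 CPM and 11211 and 9830 CPM in W329G. No test was made of these values.

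Within the 13 members, MT-ATP6 took a smaller part of the mitochondrial counts with 5-FU in 7 of 8 pairs and MT-ND1 a larger part in 7 of 8. The median changes were small, -0.09 and 0.11 on the log2 scale. MT-ATP8 per base stood at 0.887 ± 0.0732 of MT-ATP6 in experiment 1 and 0.824 ± 0.299 in experiment 2 (SD, n = 8 each), highest at 1.38 in W329G line 2 with DMSO of experiment 2. MT-ND4L per base stood at 1.02 ± 0.111 of MT-ND4 in experiment 1 and 0.644 ± 0.0806 in experiment 2.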
